A study of Mus musculus and synthetic construct with 21 samples.

Results

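The elements described here are 650 designed DNA oligos that carry 1 window of the native form of a PPAR site inside a control version of the same site. They are the pool 4 elements whose names hold ctrlswap and a window position, at 26 positions of each of 25 sites, out of 2075 elements in pool 4 and 22463 in the 7 pools of the series. The name of a member is read here as 20 bases of the site's wt (native) form placed in its ctrl form, starting at base 0, 5, 10 and so on to 125, so that neighbouring windows share 15 bases. This reading is not stated in the sources used here, and the names give no position for the PPAR motif within the element. In the text a member is called by its site number and the first base of its window.

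The series asked how the PPARγ motif, chromatin and the sequence around the motif set PPARγ binding and enhancer activity, using reporter libraries in 3T3-L1 cells, a mouse pre-adipocyte line that becomes adipocyte-like when induced. Every RNA library used here comes from cells given the same treatment, 1 µM dexamethasone, 1.7 µM insulin and 0.5 mM IBMX. The plasmid libraries are input DNA and have no treatment. RNA was collected 16 h after transfection. Pool 4 consists of 1 RNA library of 34933524 counts from the transfected cells and 1 plasmid library of 48475346 counts from the input DNA. Neither library has a replicate, so spreads and p-values below are over barcodes of an element or over sites, and they do not cover differences between cultures. Reporter plasmids were transfected, so the elements were measured outside their chromosomal place.

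PPARγ, a ligand-activated nuclear receptor, is the central regulator of fat cell formation. It binds DNA as a dimer with RXR at DR1 motifs, direct repeats of the half-site AGGTCA with a single base between them. Enhancers usually need further factors bound beside the receptor, among them AP-1 (dimers of JUN and FOS family proteins, which are activated early after stimulation), C/EBP and NFI proteins. A reporter assay of this kind reads the activity of each oligo from the abundance of its transcribed barcodes relative to the plasmid. Placing a native window in the control version asks whether that window is sufficient to raise activity where the native form is the more active of the pair, which is the reverse of asking whether activity is lost when the window is replaced in the native version.

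For each barcode, 1 was added to the RNA and the plasmid count, both were divided by the total of their library, and the log2 of their ratio was taken. Activity is the median of this value over the barcodes of an element that had at least 20 plasmid counts. An activity of 0 therefore means that an element took the same share of the RNA as of the plasmid library. Members kept 9 to 13 of their 13 barcodes (median 13), and only 2 kept fewer than 10. Their summed plasmid counts ran from 1479 to 740225 (median 17157.5), and their RNA counts had a median of 4969.5 and a minimum of 494. The barcodes of 1 member had a median SD of 1.13 on the log2 scale (range 0.27 to 2.70).

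The 9 sites at which a window was called higher than ctrl are identified by the 16 bases that each name carries from the mm9 mouse genome. They are shown because the gains described below sit at these PPAR sites. Capitals mark matches to a DR1 of 13 bases (the half-site given above, an adenine, and the half-site again) laid over bases 4 to 16, and each site is read 5′ to 3′ on the strand its name gives.
site 685 (chr7:128189270-128189285, minus strand): tgtgGGcaAgAGGTCA
site 707 (chr16:59639568-59639583, minus strand): actAGGgacAgGGTCA
site 142 (chr3:30881176-30881191, plus strand): tctgGGcaAAAGGgtA
site 246 (chr6:24582318-24582333, plus strand): tgtgGGgCAAAGGgtA
site 539 (chr12:56575162-56575177, minus strand): tttAGGgCAAAGagCA
site 46 (chr4:45013055-45013070, plus strand): actgtGatAAAGGTCt
site 126 (chr8:90491393-90491408, plus strand): actAGGcCAgAGtTCA
site 704 (chr6:13529562-13529577, plus strand): actgGGaCAAAtGTCA
site 281 (chr1:129886516-129886531, plus strand): actgGaggAAAGGTCA
All 9 depart from DR1, by 5 bases at sites 142 and 46, by 4 at sites 685, 707, 246 and 281, and by 3 at sites 539, 126 and 704. Departures of 2 to 5 bases were present at all 25 sites, so they are not particular to the 9. The windows themselves are not printed, because their bases were not analysed here, and the sites were not assigned to genes.

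The gap that a window could close was wide at most sites. The ctrl elements had a mean activity of -1.41 (SD 0.48, n = 25 sites) and the wt elements 0.25 (SD 1.26, n = 25). The wt element was above ctrl at 23 of 25 sites, and the wt minus ctrl difference ran from -0.33 at site 46 to 4.81 at site 322. By a permutation test over barcodes with Benjamini-Hochberg adjustment over all 2050 elements set against the ctrl of their site, wt was called higher than ctrl at 15 sites (60% of the 25) and lower at 0 (0 also at an unadjusted p under 0.05).

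Most native windows left the control version where it was. The 650 members had a mean activity of -1.41 (SD 0.57), running from -3.27 to 2.19. Relative to the ctrl of their own site, 324 lay above and 326 below, the median difference was -0.000534, and 609 differed by under 1 log2 unit. The differences, each between 2 barcode medians, had an SD of 0.56. In the permutation test against ctrl, 20 members were called higher (3.08%, with 32 at an unadjusted p under 0.05) and 8 lower (1.23%, with 19). Over all elements tested the call rates were 36.7% higher and 1.22% lower. The 2 other series, swap and comp, alter the native element instead. The comp windows are shorter than the 20 bases of a ctrlswap window, since they start as late as base 135 and both scans end at base 145. Of the swap windows 50.3% and of the comp windows 55.1% were called above ctrl, and 1.23% and 1.14% below it. The share of members called lower is thus that of the background.

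How many single windows pass depends on the adjustment, since the Benjamini-Hochberg family also holds the many swap and comp elements that lie above ctrl and that ease its threshold. With Holm adjustment 0 members were called in either direction, and with Benjamini-Hochberg adjustment among the ctrlswap elements alone 1 was called higher and 0 lower. The ctrl element is also a single oligo that all 26 windows of a site share, so each window was set in addition against the pooled barcodes of the other 25 ctrlswap windows of its site. By that permutation test 9 members were called higher (1.38%, 27 unadjusted) and 2 lower (0.308%, 32 unadjusted), against 2.1% and 3.55% over all 2000 windows of the 3 series. The same comparison within the swap series gave 3.08% higher and 5.54% lower, and within the comp series 1.86% and 4.71%. The 9 were also called higher than ctrl, and 0 were called lower by both references. The 2 references share the barcodes of the window itself and are not independent.

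At the 15 sites where wt was called above ctrl, 0 of 390 windows reached the median activity of wt. Of these sites, 5 held a window called higher than ctrl, with 15 such windows between them, and 10 held none. The 15 windows regained between 13.2% and 80.6% of the wt minus ctrl difference (median 46.2%), counted on the log2 scale. Whether a window differed from wt was not tested, and the barcodes of the strongest windows overlapped those of wt.

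Window 5 of site 685 was the highest member. Its 12 barcodes ran from -0.90 to 2.58 with a median of 2.19, and the 12 of the ctrl element from -3.67 to 0.42 with a median of -1.46. Of the 12, 11 lay above the highest ctrl barcode, so the groups hardly overlapped. The difference was 3.65 log2 units, or 12.6-fold (permutation adjusted p = 0.00198). Against the other windows of the site it was 3.59 (permutation adjusted p = 0.00167, from p = 1e-05, the smallest that 100000 permutations can give). The wt element of this site had only -0.54 and was not called above ctrl (permutation adjusted p = 0.0962), so this window stood 2.73 above the native element it was taken from and does not count as a return to wt activity. The windows on either side were low, with -1.14 at window 0 and -1.34 at window 10, although each shares 15 bases with window 5.

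The 5 next largest called gains were at sites 707, 142, 246 and 539, all with wt called above ctrl. At site 707, window 120 had barcodes from -2.53 to 1.77 (median 0.74), ctrl from -5.47 to 0.75 (median -1.996) and wt from -0.54 to 2.70 (median 1.84). Its difference from ctrl was 2.74 (permutation adjusted p = 0.0194), or 71.4% of the distance to wt, and 6 of 13 barcodes lay above all ctrl barcodes. From the other windows of the site it differed by 2.24 (permutation adjusted p = 0.00167). Window 115 reached -0.57 and window 125 stayed at -1.56, so the gain was largest in 1 window and did not extend to the end of the scan. The ctrl element of this site was low for its own windows, 24 of 26 of which lay above it.

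Site 246 gave the most called windows, 6 of 26. At window 30 the barcodes ran from -0.98 to 1.53 (median 0.55), ctrl barcodes from -3.88 to -1.06 (median -1.54) and wt barcodes from -1.91 to 1.44 (median 1.10). All 13 barcodes of window 30 lay above the highest ctrl barcode. The difference of 2.10 (permutation adjusted p = 0.00198) was 79.4% of the distance to wt, and it was 1.83 from the other windows (permutation adjusted p = 0.00167). Window 20, at -0.55, was also called by both references, with a difference of 0.99 from ctrl (permutation adjusted p = 0.0454) and 0.69 from the other windows (0.0474). The other called windows of the site, 25, 125, 45 and 5, exceeded ctrl by 0.68, 0.74, 0.55 and 0.35 and were not called against the other windows. The ctrl barcodes of this site had an SD of 0.76, below the 1.13 of a typical member. Sites 342, 614 and 704 had lower ctrl SDs (0.55, 0.65 and 0.70) and 0, 0 and 1 windows called higher than ctrl. Whether the ctrl spread bears on the number of calls was not tested.

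At site 539, window 120 had barcodes from -4.26 to 0.48 (median -0.17), against -4.19 to -0.62 for ctrl (median -1.70) and -1.96 to 2.13 for wt (median 0.59). It exceeded ctrl by 1.53 (permutation adjusted p = 0.00418), which was 66.9% of the distance to wt, with 8 of 13 barcodes above all those of ctrl. It exceeded the other windows by 1.33 (permutation adjusted p = 0.0128). With even-numbered barcodes alone the difference from ctrl was 0.85. Window 115 had -1.34 and window 125 -1.62, so here too a single window stood out from neighbours that share most of its bases.

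At site 142 the gain covered a pair of neighbouring windows, and window 45 regained the largest share of the distance to wt among the 15. Window 45 had a median of 1.15 and window 50 of 0.89, where ctrl had -1.09 and wt 1.70. Their barcodes ran from -2.06 to 3.36 and from -2.01 to 1.87, ctrl barcodes from -2.99 to 2.15, and the groups overlapped. The difference of window 45 from ctrl was 2.25 (permutation adjusted p = 0.0196), or 80.6% of the distance to wt, and from the other windows 1.74 (0.0402). That of window 50 was 1.98 (permutation adjusted p = 0.0399) from ctrl and 1.47 (0.0994) from the other windows. Window 75, with 0.20, was called against ctrl alone (difference 1.29, permutation adjusted p = 0.0442). Windows 40 and 55 had -0.58 and 0.04, so values were lower on both sides of the pair at 45 and 50.

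At site 126, with ctrl at -1.24 and wt at 0.98, 4 windows were called against ctrl. Window 85 (median -0.04, barcodes from -4.95 to 1.26) exceeded ctrl by 1.20 (permutation adjusted p = 0.0378) and the other windows by 1.12 (0.0266). It regained 54.0% of the distance to wt. Windows 75, 90 and 55 exceeded ctrl by 1.02, 0.63 and 0.54 and were not called against the other windows. Window 80, between the called windows 75 and 85, had -0.84.

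The last gains were at sites whose wt element was not called above ctrl. At site 46, window 90 had 1.44 (barcodes from -1.69 to 2.06), where ctrl had 0.05 and wt -0.28. The difference was 1.39 from ctrl (permutation adjusted p = 0.0099) and 2.07 from the other windows (0.0037), and windows 85 and 95 had -0.10 and -0.35. With odd-numbered barcodes alone its difference from ctrl was 0.45. At site 704, window 0 had -0.05, ctrl -1.07 and wt -0.57. This window kept 9 barcodes with an SD of 2.70, from -5.58 to 2.11, and its difference of 1.02 passed an exact permutation test (adjusted p = 0.043). From the other windows of the site it differed by 1.46 (permutation adjusted p = 0.0426). At site 281, windows 5 and 120 had -0.09 and -0.14 against a ctrl of -0.94 and a wt of -0.29. They exceeded ctrl by 0.85 (permutation adjusted p = 0.0344) and 0.79 (0.00599) and were not called against the other windows.

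Several large differences did not pass. Windows 0, 115 and 35 of site 707 exceeded ctrl by 1.56, 1.43 and 1.40, and window 55 of site 211 by 1.45 (permutation adjusted p = 0.15). At these 2 sites 24 of 26 windows lay above ctrl, so a part of each difference is shared by nearly the whole scan of the site. The reverse held at site 46, where the ctrl element had 0.05 and 24 of 26 windows lay below it (median of the windows -0.60).

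Members called lower than ctrl came from 3 sites. Site 46 gave 4 of the 8, at windows 0, 110, 25 and 75, with differences of -1.59, -1.49, -1.39 and -1.33. Site 638 gave 3 neighbouring windows at 25, 30 and 35, with activities of -1.57, -1.65 and -1.68 against a ctrl of -0.57 (permutation adjusted p = 0.0352, 0.013 and 0.042). Window 45 of site 705 had -2.38 against -1.05 (permutation adjusted p = 0.0169). None of the 8 was called lower than the other windows of its site. The 2 members called lower in that comparison were window 80 of site 707, at -3.27 (difference -1.82, permutation adjusted p = 0.0037), and window 100 of site 100, at -3.04 (difference -1.45, permutation adjusted p = 0.0191). Window 100 of site 100 was also the member farthest below its ctrl, by -1.77 (permutation adjusted p = 0.152).

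At 10 sites wt was called above ctrl and no window was. The widest gap was at site 322, where ctrl had -1.75 and wt 3.05, and the highest window, at 40, had -0.78, or 20.2% of the distance. Site 591 had ctrl at -1.45, wt at 1.65 and its highest window, 15, at -0.86. Site 100 had ctrl at -1.28 and wt at 1.64, and its highest window, 40, had -1.17, which is 3.57% of the distance. Site 39 went from -1.74 in ctrl to 0.92 in wt, with window 10 highest at -0.92. Sites with a strong native enhancer thus included ones where no 20-base stretch was called above ctrl.

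The other 6 of these sites showed the same order. Site 638 had ctrl at -0.57 and wt at 1.45, and its highest window, 15, reached 0.46 (permutation adjusted p = 0.0779). Site 249 had -1.81 and -0.17, with window 10 at -0.82 (permutation adjusted p = 0.0602). Site 199 had -1.82 and 0.35, with window 65 at -1.27. In each of these the highest window lay between ctrl and wt, as it did at site 614 (-1.27, 0.64, and -1.06 at window 115), site 227 (-1.21, 0.23, and -0.89 at window 70) and site 342 (-1.84, -0.73, and -1.21 at window 0).

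At 6 sites neither wt nor any window was called above ctrl. Site 413 had ctrl at -1.32, wt at 0.08 and its highest window, 105, at -1.08. Site 92 had ctrl at -1.75, wt at -1.001 and window 120 at -1.18. Site 211 had ctrl at -2.21, wt at -2.13 and window 55 at -0.76. In the last of these the highest window was above both reference elements, as were window 65 of site 360 (-0.96, with ctrl at -1.55 and wt at -1.47), window 65 of site 509 (-1.13, with -1.60 and -1.32) and window 0 of site 705 (-0.08, with -1.05 and -1.36).

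No position was called above ctrl across sites. The mean difference from ctrl over the 25 sites was tested by sign flips at each ctrlswap position. Swap and comp positions were set against wt instead, and p-values were adjusted over the 80 window positions of the 3 series. Of the 26 ctrlswap positions, 0 were called higher and 0 lower (0% each, also 0 at an unadjusted p under 0.05). The 80 positions together, each against the reference of its series, gave 0% higher and 17.5% lower. The lower calls were thus all swap or comp positions below wt. The highest means were at positions 5 (0.25 ± 0.87, SD, above ctrl at 18 of 25 sites, permutation adjusted p = 0.254), 105 (0.11 ± 0.43, 16 of 25) and 50 (0.10 ± 0.50, 13 of 25). Without site 685 the mean at position 5 was 0.11 ± 0.51 over 24 sites. The lowest means were at positions 80 (-0.18 ± 0.60), 100 (-0.18 ± 0.50, above ctrl at 8 of 25 sites, permutation adjusted p = 0.151) and 25 (-0.09 ± 0.52).

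The called gains were spread along the element. Positions 5 and 120 held 3 each, positions 45, 75 and 90 held 2 each, and positions 0, 20, 25, 30, 50, 55, 85 and 125 held 1 each. Position 120 was called at sites 707, 539 and 281, and its mean over the 25 sites was 0.08 ± 0.84, with 11 sites above ctrl.

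Variation among the members followed the site more than the position. Of the sum of squares of activity, 36.9% lay between sites, 2.53% between positions and 60.6% in the remainder. The remainder was only partly repeatable within the library: after site and position means were taken out, values from odd-numbered and even-numbered barcodes correlated with r = 0.22 (rho = 0.15, 650 windows), and with r = 0.14 without the 5 largest differences. Windows 1 step apart, which share 15 of 20 bases, correlated with r = 0.17 over 625 pairs, those 2 steps apart with r = -0.01, and those 4 steps apart, which share no base, with r = -0.12. These are descriptions over windows of 1 RNA and 1 plasmid library.

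The level of a site's windows went with its ctrl version and not with its native one. Over 25 sites the median of the 26 windows correlated with the ctrl element (r = 0.73, rho = 0.61) and not with wt (r = 0.06, rho = -0.04). The site medians ran from -1.86 to -0.52. In pool 2, a separate pair of libraries with a ctrl element of the same sites, the ctrl activity correlated with the pool 4 window medians with r = 0.86 (rho = 0.73, and r = 0.76 without the 2 sites farthest from the median). Against the single pool 4 ctrl elements it was r = 0.68 (rho = 0.62, and r = 0.48 without the 2 farthest sites). Pool 1 holds for each number an element of a class named c in its native form, and the window medians correlated with these with r = 0.92 (rho = 0.73, and r = 0.82 without the 2 farthest sites). The c elements were highest for sites 142, 638 and 46 (1.35, 1.21 and 1.10), which are also the sites with the highest window medians. Points within each correlation share their library, and the window medians share the ctrl backbone of a site.

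The same stretch can be looked at from the other side in the swap series, read as the wt element with the window replaced. At the 20 members called above ctrl, the swap element lay below wt in 20 of 20 cases, with a median difference of -1.10. The difference ran from -2.63 at window 120 of site 707 to -0.003 at window 120 of site 281. At window 5 of site 685, the highest member, it was -0.42. At the 214 other windows of these 9 sites the swap element lay below wt in 142 cases, with a median of -0.29. Over all 650 windows it was below in 477, with a median of -0.41. Sites 246, 126 and 142 gave 6, 4 and 3 of the 20 members, so the 20 and the 214 windows are not matched by site. The windows of a site share 1 wt element and overlap each other, so this is a description with no test. At site 707 the swap elements at 110, 115, 120 and 125 had -0.86, -0.65, -0.79 and -1.03 where wt had 1.84, and the comp elements at 110, 115 and 120 had 0.70, 0.43 and -1.003. At site 539 those at 115, 120 and 125 had -0.96, -1.12 and -1.06 where wt had 0.59, and at site 246 those at 20 to 35 had between -0.66 and -0.47 where wt had 1.10. The comp elements at 20, 25, 30 and 35 of site 246 had 0.71, -0.37, -0.54 and 0.49. The swap elements at these windows were thus low, while the comp elements of the neighbouring windows were not all low. A comp window is shorter than a swap window, so elements of the 2 series with the same first base do not alter the same stretch. At site 142 the swap elements at 45 and 50 had 0.48 and 0.52, which is -1.22 and -1.18 relative to the wt value of 1.70, and the comp element at 45 had 2.91.

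Pool 5 altered named motifs at 20 of the 25 sites, and its names give each motif and a position. A window was counted as holding a motif when the named position lay from its first base to 10 bases further on, taking both pools to number from the same base, which the sources used here do not state. These motif groups were looked up after the window values were seen. Among the 520 windows of these sites 20 were called higher (3.85%), against 10 of 126 windows with any named motif (7.94%) and 10 of 394 with none (2.54%).

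Windows with names of AP-1 and related factors were 20 at 6 sites. Their median difference from ctrl was 0.49, where the 520 windows had -0.01. Of the 20, 5 were called higher (25%, against 3.85% of the 520) and 3 lower, against 7 lower among the 520. The 5 were window 5 of site 685, windows 20, 25 and 30 of site 246 and window 120 of site 539. Further windows with such names at sites 685 and 539 were not called. They were window 0 of site 685 (0.31) and windows 110 and 115 of site 539 (0.71 and 0.36). At the other 3 sites none was called higher: site 142 (4 windows, -0.76 to 0.31), site 39 (0.23 and 0.76) and site 638 (6 windows, -1.11 to 1.03), which gave the 3 lower calls. Windows that share a named motif also share most of their bases, so the 20 are not separate tests.

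For the other groups of names the calls are to be read against the 3.85% over all 520 windows. The 41 windows with PPAR or RXR names, at 11 sites, had a median difference of -0.11 and 2 calls higher (4.88%), at window 90 of site 126 and window 5 of site 281. The 16 windows with C/EBP or related names had a median of 0.01 and 0 calls higher, and the 20 with NFI names had -0.10 and 0, where that share would give under 1. Window 90 of site 46 held a name for MYC, a proliferation factor that binds E-box sequences. Among the called windows without a counted name were window 120 of site 707, windows 45 and 50 of site 142, window 85 of site 126 and window 0 of site 704. Pool 5 had few names to find at 2 of these sites, only cebp at 87 at site 707, and nf1 at 29 and cebp at 56 at site 704. At site 126 names at 99 to 104, such as ppar and nr1, lie within the 20 bases of window 85 but past the part counted.

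In pool 5 itself, which reports 1 value per element from summed counts, elements with an altered motif mostly lay below wt at these windows, a description with no test. Most altered motifs over all 20 sites also lay below wt, so this is not particular to these windows. At site 246 the fos name at 32 and the fra1 name at 31 differed from wt by -1.57 and -1.43, and the jun, bach1 and ap1 names at 27, 28 and 29 by -0.63, -0.68 and -0.73, where the 3 alterations marked ctrl had a median difference of 0.18. At site 539 the ap1 name at 120 and the fra1 name at 123 gave -0.84 and -1.19, against -0.16 for 3 ctrl alterations. At site 46 the myc name at 93 gave -1.51, against -0.05 for 3. At site 685 the ap1 name at 5 gave -1.81, but the 9 ctrl alterations of that site had a median of -1.62, so there the altered motif was close to them. At site 281 the signs were mixed: the pparg name at 6 and the hnf4 name at 8 gave 0.46 and 0.38, and the ppar and rxr names at 14 gave -0.50 and -0.48, against 0.59 for 1 ctrl alteration. At site 142 the fra1 name at 29 gave -3.02, against -1.06 for 4 ctrl alterations, while the ctrlswap windows 20 and 25 that hold this name had -0.78 and -0.91, against a ctrl of -1.09. Loss of activity when a motif was altered was therefore not matched in every case by a gain when its window was placed in ctrl.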

How the data were processed

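Pool 4 was deposited as raw read counts for 13 barcodes per element, per the file headers, in 1 RNA and 1 plasmid table. The series' design text describes pool 4 as summed over barcodes, but the table is per barcode and was used so. The deposited pool 5 table holds counts summed per element (at least 50 plasmid counts required). The build is mm9 per the submitters' processing notes, and the tool that counted barcodes is not given in the sources used here.

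Members and motif lists were chosen with earlier results of these data known. Members named are all called windows (at most 10 each way in full), the 5 highest and lowest differences, the 3 highest and lowest positions, and each site's ctrl, wt and highest window. All 650 members passed the filter on plasmid counts.

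Differences of barcode medians were tested by 2-sided permutation (100000 draws, exact below 10 barcodes) and positions by 2-sided sign flips over sites, with Benjamini-Hochberg adjustment over all 2050, 2000 or 80 tests and a threshold of 0.05. The permutation test was also run on simulated barcodes with known differences, and its outcome is not reported here. The simulated spread was pooled over all elements, whereas the barcode SD of members ran from 0.27 to 2.70. Python 3.11.15, numpy 2.4.6, pandas 2.3.3, scipy 1.17.1, R 4.3.3 and limma 3.58.1 were used. Alternatives were other pseudocounts (0.5, 5), no plasmid minimum or one of 100, barcode means, summed counts, rank sums, limma, other adjustments and each set of alternate barcode columns. Limma and rank sums with other adjustments, and leaving out 2 members whose names end in mod, were added after seeing the data.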

Additional observations from a re-analysis of the deposited data

How the results depend on the processing

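No paired analysis was possible because each pool has 1 RNA and 1 plasmid library. The wt minus ctrl difference stayed between 1.58 and 1.73 under 9 alternatives. Calls of single windows did not hold up as well. The count called higher than ctrl (20) was 5 and 0 with odd-numbered or even-numbered barcodes alone, 0 with Holm adjustment, 1 with adjustment among ctrlswap elements alone, 3 and 4 by limma with these adjustments, and 1 and 2 by rank sums with them. The count called lower (8) was 4 and 0 with odd or even barcodes, 14 by barcode means and 17 by limma. With Holm adjustment it was 0 throughout, and within the kind 0, 1 by limma and 0 by rank sums. Fewer barcodes per test enter the alternate columns, and the exact test then moves in coarse steps. With even barcodes window 120 of site 707, window 30 of site 246 and window 90 of site 46 shared a permutation adjusted p of 0.0554. Their differences from ctrl were 2.18, 1.95 and 1.55. With odd barcodes window 5 of site 685 and window 30 of site 246 shared 0.0486. The counts from alternate columns therefore cannot show whether the calls against ctrl repeat.

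Against the other windows of the site, the count higher (9) was 5 with a minimum of 100, 2 and 1 with odd or even barcodes, 3 with Holm, 5 within the kind, 19 by rank sums, and 4 by limma or rank sums with Holm. The count lower (2) was 4 with the minimum of 100, 0 with odd or even barcodes, 0 with Holm by each test, 6 by barcode means or limma and 12 by rank sums, and 1 within the kind by each test. The windows called higher than ctrl by limma with Holm adjustment were 3, all of them among the 20. Window 5 of site 685 was called against the other windows under 15 of 15 settings, window 30 of site 246 under 14, window 120 of site 707 under 13, window 90 of site 46 under 11 and window 120 of site 539 under 9. Against ctrl the same windows were called under 11, 12, 9, 7 and 7 of the 15. With alternate barcode columns the differences from ctrl of other called windows moved by over 1.5 times: window 75 of site 142 to 0.65, windows 25 and 35 of site 638 to -1.67 and -1.96, window 25 of site 46 to -2.11 (odd) and -0.45 (even), and window 45 of site 705 to -0.86, the last also to -2.01 by barcode means.

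With summed barcode counts 1 position was called higher, 50 (adjusted p = 0.019), and the shares of site, position and remainder were 43.6%, 2.49% and 53.9%. By barcode means they were 36.9%, 2.25% and 60.8%. With even-numbered barcodes window 25 of site 46 and window 100 of site 100 turned to 0.10 and 0.29 against the other windows, and the median over sites at position 25 was 0.12. The cause was not tested.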
